A study of Homo sapiens with 12 samples.

Results

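The HSP70, HSP90 and J-protein chaperones described here are the 70 protein-coding genes whose symbols begin with DNAJA, DNAJB or DNAJC and a number, or are HSPA with a number, HSP90A members, HSPH1, HSPD1, HSPE1 or HSPB with a number, leaving out HSPA5. They were found by symbol among 67049 gene IDs, of which 19890 matched a protein-coding gene. Of the 70, 56 passed a filter on low counts and were tested among 20394 genes, 13895 of them protein-coding. The members were sorted into HSP70 and HSP110 (14 genes), HSP90 (2), DNAJA (4), DNAJB (12), DNAJC (29), HSPD1 with HSPE1 (2) and small heat shock proteins (7).

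RNA came from the nuclear and the cytoplasmic fraction of HEK293T, a transformed line derived from human embryonic kidney. All cells had been transfected with Lipofectamine 2000 and the plasmid pIRES2-SF3B1 and were collected after 48 h. The plasmid carried SF3B1, a subunit of the U2 snRNP of the spliceosome, either as wild type (WT) or with the cancer-associated substitution K700E. The 4 groups, WT nucleus, WT cytoplasm, K700E nucleus and K700E cytoplasm, held 3 libraries each. Every group therefore carried added SF3B1 on top of the cells' own, there was no untransfected group, and counts do not tell the plasmid's transcript from that of the cells. The labels do not say whether the 3 libraries came from separate cultures, so the p-values take in the spread among these libraries and nothing wider. The series title names nuclear export of mRNA, which is the question behind comparing fractions and constructs.

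Chaperones hold unfolded proteins and help them fold, and the classes work in relay. J-proteins (DNAJA, DNAJB, DNAJC) bring clients to HSP70 and trigger its ATP hydrolysis, HSP110 proteins and other exchange factors reset it, and HSP90 takes over clients such as kinases and steroid receptors. HSPD1 and HSPE1 form the mitochondrial chaperonin, and small heat shock proteins hold unfolded clients without ATP. A subset is switched on by the transcription factor HSF1, which binds heat shock elements, inverted repeats of GAA, in promoters.

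Library totals ran from 9086743 to 18116929 counts, and the members took 0.521% to 0.831% of counts in nuclei and 1.13% to 1.41% in the cytoplasm. Levels are counts scaled to a library of 1000000 with edgeR's TMM factors (CPM). The fractions separated by known markers, since the 13 mitochondrial mRNAs summed to 905 to 1242 CPM in nuclei and 4462 to 18737 CPM in cytoplasm, and 5 nuclear RNAs including MALAT1 and NEAT1 summed to 2686 to 9814 CPM and 83.5 to 144 CPM. Most of the nuclear sum was MALAT1, with means of 3714 CPM in WT and 4861 CPM in K700E nuclei. MEG3, also among the 5, had only 3 counts in all. Among HEK293T genes, LIN28B, NEFM, INA, EYA1 and PAX2 were detected, with 1043 counts in all for PAX2, the lowest of these. Of 5 genes that mark other cells, PTPRC and HBB had 10 and 2 counts in all, while ALB had 1150, COL1A1 4715 and ACTA1 985, and their part in the results was not tested. SF3B1 stood at 1021 to 2473 CPM in nuclei, 8186 to 10050 CPM in WT cytoplasm and 6900 to 8539 CPM in K700E cytoplasm. Libraries also differed by base composition: within a group, a library's deviation from the group mean correlated with transcript GC content at between -0.607 and 0.758 (Spearman, over 11942 genes), with WT nucleus 2, WT cytoplasm 3 and K700E cytoplasm 3 above 0.5 (the 3 GC-rich libraries). The part of base composition in the results was not tested beyond leaving out those 3 libraries.

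The strict heat shock element was searched to see which members carry the mark of HSF1 control next to the start of transcription. RefSeq windows (GRCh38.p14) of the 250 bases before each start were matched to 63 members by symbol. The letters searched were GAANNTTCNNGAA or TTCNNGAANNTTC, which are each other's reverse complement and so cover both strands. They occur in 0.441% of all 35116 windows and in 7.32% of the 82 windows of members. By gene, they occur in 0.557% of 27305 genes and in 9.52% of the 63 members. The 6 members are HSP90AA1, HSP90AB1, HSPA8, HSPD1, DNAJB6 and HSPA6. The 5 windows below belong to members of the stress-inducible list used later, with the element in capitals, 5′ to 3′ on the gene's strand.
HSP90AB1, chr6:44247693-44247942, plus strand: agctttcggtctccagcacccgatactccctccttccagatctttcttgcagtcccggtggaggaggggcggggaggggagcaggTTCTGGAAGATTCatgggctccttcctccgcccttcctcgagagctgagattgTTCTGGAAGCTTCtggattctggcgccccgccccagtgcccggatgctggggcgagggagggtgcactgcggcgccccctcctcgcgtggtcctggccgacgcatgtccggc
HSP90AA1, chr14:102087045-102087294, minus strand: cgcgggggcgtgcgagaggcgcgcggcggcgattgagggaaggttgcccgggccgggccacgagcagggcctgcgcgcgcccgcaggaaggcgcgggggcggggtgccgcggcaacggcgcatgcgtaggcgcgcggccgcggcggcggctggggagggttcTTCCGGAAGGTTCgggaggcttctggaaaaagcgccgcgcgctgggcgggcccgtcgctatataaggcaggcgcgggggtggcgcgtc
HSPA8, chr11:123062137-123062386, minus strand: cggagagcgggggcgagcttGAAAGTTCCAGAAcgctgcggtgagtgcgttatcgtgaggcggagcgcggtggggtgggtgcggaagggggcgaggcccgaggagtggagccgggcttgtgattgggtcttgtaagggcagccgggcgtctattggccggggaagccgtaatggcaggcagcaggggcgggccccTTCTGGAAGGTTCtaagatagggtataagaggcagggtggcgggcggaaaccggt
HSPD1, chr2:197499841-197500090, minus strand: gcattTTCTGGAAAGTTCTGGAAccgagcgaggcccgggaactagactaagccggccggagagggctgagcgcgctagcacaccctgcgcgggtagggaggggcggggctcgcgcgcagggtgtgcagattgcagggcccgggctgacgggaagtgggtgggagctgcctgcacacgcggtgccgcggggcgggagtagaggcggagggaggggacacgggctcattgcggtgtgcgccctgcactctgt
HSPA6, chr1:161524290-161524539, plus strand: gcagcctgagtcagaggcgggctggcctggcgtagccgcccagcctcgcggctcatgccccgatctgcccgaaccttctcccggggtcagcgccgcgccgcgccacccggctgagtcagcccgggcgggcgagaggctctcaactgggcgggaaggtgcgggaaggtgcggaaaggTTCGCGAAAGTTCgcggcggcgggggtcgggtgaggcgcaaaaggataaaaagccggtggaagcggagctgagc
HSP90AB1 and HSPA8 each hold 2 separate elements. In HSPD1 2 matches overlap and read as one longer stretch at the far end of the window, which reaches into HSPE1 on the other strand. A match is a sequence description and does not show that HSF1 was bound, and other members may carry elements that differ from these letters or lie elsewhere.

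More chaperone mRNAs were higher in the cytoplasm than were lower, led by both HSP90 genes, HSPB1, DNAJC14, DNAJA1 and DNAJC8. With WT SF3B1, 28 of the 56 tested members were higher, 13 were lower and 15 did not pass the test (edgeR quasi-likelihood F test, Benjamini-Hochberg adjusted p under 0.05). In the same comparison 27.1% of all genes were higher and 40% lower, and of protein-coding genes 35.4% were higher and 29.5% lower. The median log2 fold change was 0.77 over members and 0.13 over protein-coding genes. With K700E, 27 members were higher and 13 lower (median 0.64), against 28.1% and 37.9% of all genes and 36.5% and 27.4% of protein-coding genes (median 0.19). All of these are shares of a library, so more RNA per cell and more cells cannot be told apart, nor can a larger RNA pool in one fraction.

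The split into higher and lower rests on the scaling between fractions. With library size alone in place of TMM, 17 members were higher and 17 lower with WT, and 17 and 16 with K700E, and with upper quartile factors 20 and 16, and 18 and 14. Of all 20394 genes, library size alone called 3789 higher and 10246 lower with WT, and 4225 and 9448 with K700E. Upper quartile factors called 4229 higher and 9660 lower with WT, and 4423 and 9249 with K700E. These scalings moved the median of all genes by -0.51 and -0.38 with WT and by -0.41 and -0.37 with K700E (log2). Without K700E nucleus 1, 8 members rather than 13 were lower with K700E, where 7651 of 22152 genes were lower. No member called with TMM changed direction under any alternative tried. Calls that ended under at least 1 other scaling were DNAJC21, DNAJC5, DNAJC6, HSPA13 and HSPA9 with both constructs, DNAJB12, DNAJC9, HSPA2, HSPA4L, HSPB8 and HSPH1 with WT, and DNAJB2, DNAJC1, DNAJC19, DNAJC30 and HSPE1 with K700E. Between the constructs 24 members were higher and 12 lower in both, 5 passed with WT alone (HSPA4L, DNAJC9, HSPB8, HSPH1, DNAJA4), 4 with K700E alone (DNAJB2, DNAJB11, DNAJC30, DNAJC1), and 0 moved in opposite directions. Passing with one construct alone is no difference between constructs, which the ratio test further on addresses. The other 11 (DNAJC11, DNAJC16, DNAJB9, HSPA14, DNAJC24, DNAJC4, DNAJC22, DNAJC3, DNAJC17, HSPB9, HSPA12B) passed with neither, with estimates from -0.94 to 0.96 with WT.

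**Figure D1:**
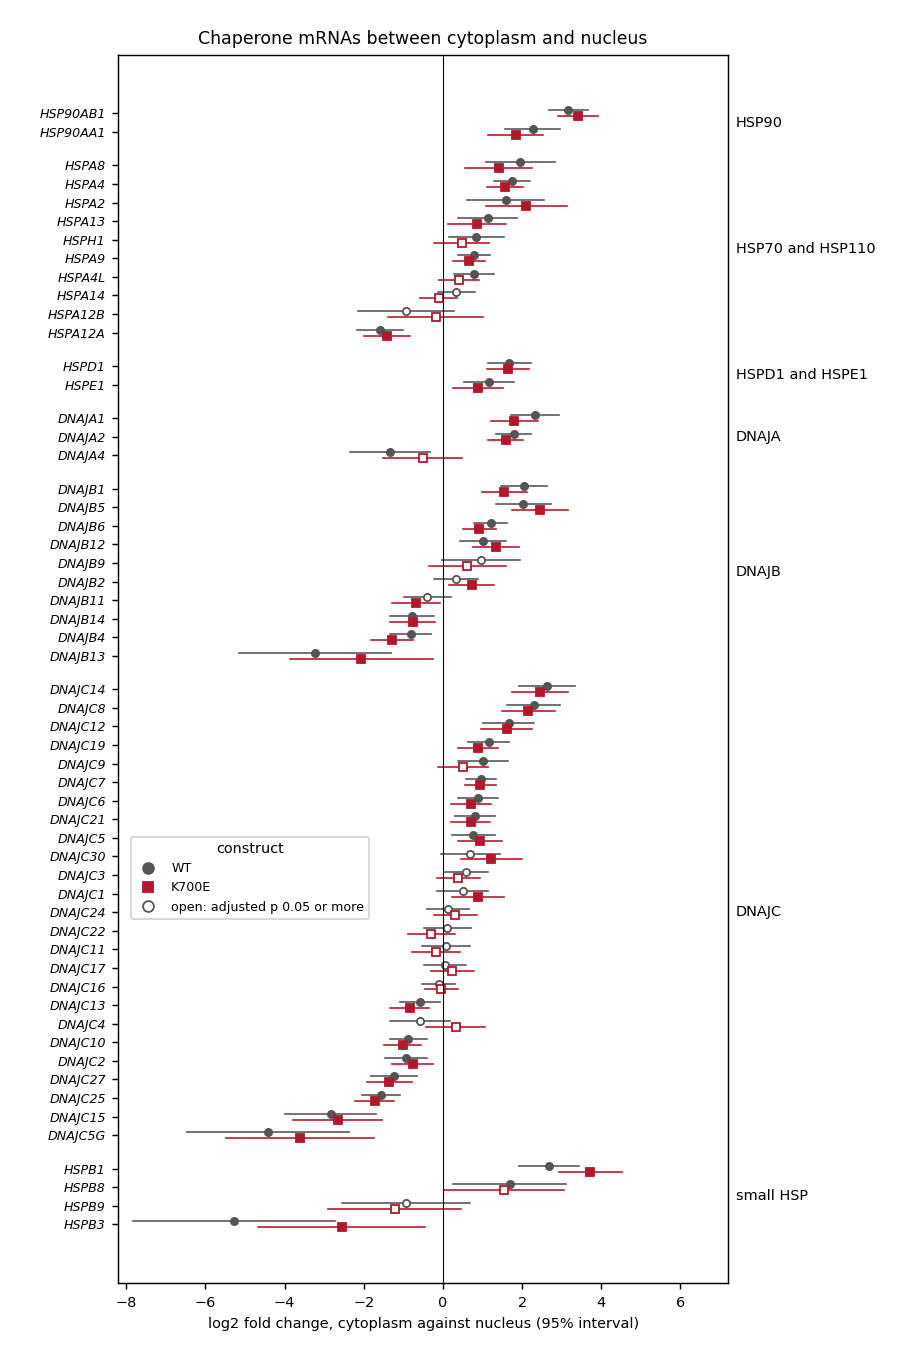
Log2 fold change of the 56 tested chaperones, cytoplasm against nucleus, with 95% intervals, by class and ordered by the WT value. Filled symbols passed the test: both HSP90 genes lie at 1.84 or above with either construct, while the DNAJC class runs from -4.41 to 2.63 with WT.

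By class, the ratio of cytoplasm to nucleus was highest for HSP90 with WT (5.94) and for the rare small heat shock proteins with K700E (9.62, against 5.25 for HSP90), and lowest for DNAJC with both (1.23 and 1.14). With TMM, nuclear and cytoplasmic sums did not overlap in any of the 7 classes, with either construct. DNAJB with K700E was barely apart, at 614 CPM in nucleus 2 and 616 CPM in cytoplasm 1. The direction of DNAJC turned with the scaling. With library size alone its mean was 1872 CPM in WT nuclei and 1623 CPM in WT cytoplasm, and 1846 and 1587 CPM with K700E. The 2 HSP90 genes summed to 1094 ± 429 CPM in WT nuclei and 6495 ± 353 CPM in WT cytoplasm (SD, n = 3 here and in the sums that follow), a ratio of 5.94. With K700E the sums were 1135 ± 275 and 5952 ± 954 CPM, a ratio of 5.25. HSP70 and HSP110 went from 1733 ± 461 to 3900 ± 497 CPM with WT and from 1793 ± 284 to 3213 ± 255 CPM with K700E. HSPD1 and HSPE1 together went from 678 ± 238 to 2130 ± 53.8 CPM with WT and from 651 ± 99.9 to 1992 ± 214 CPM with K700E.

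DNAJA sums were 167 ± 49.8 and 696 ± 89.2 CPM with WT, a cytoplasm-to-nucleus ratio of 4.16, and 153 ± 29.8 and 487 ± 40.4 CPM with K700E, a ratio of 3.18. DNAJB sums were 486 ± 115 and 720 ± 33.7 CPM with WT, and 532 ± 92.7 and 624 ± 7.37 CPM with K700E. DNAJC sums were 1564 ± 287 and 1930 ± 71.7 CPM with WT, and 1610 ± 90.4 and 1840 ± 94.4 CPM with K700E. Small heat shock proteins were rare, at 12.9 ± 8.05 and 64.3 ± 1.33 CPM with WT and 7.37 ± 0.92 and 70.9 ± 16.3 CPM with K700E. As a share of all chaperone CPM, HSP90 made up 19.1% in WT nuclei and 40.8% in WT cytoplasm, and DNAJC 27.3% and 12.1%. These sums are not scaled by gene length.

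**Figure D2:**
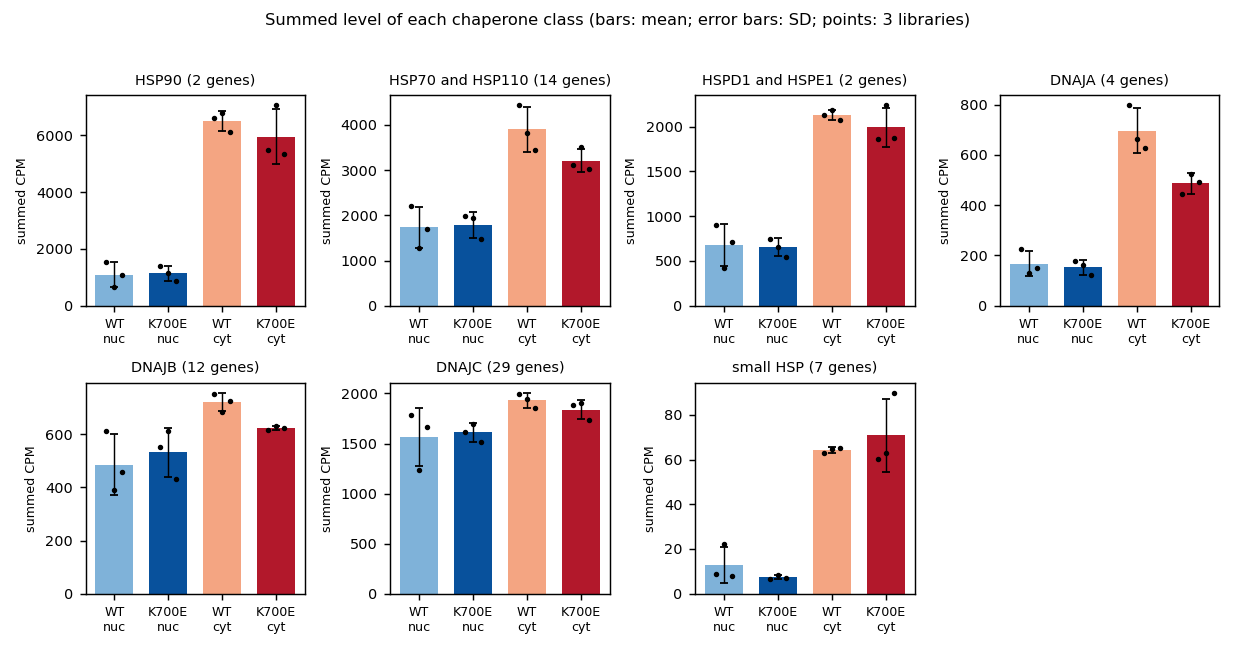
Summed CPM of all members of a class in each group, bars for the mean, error bars for the SD and points for the 3 libraries, each panel with its own axis from 0. HSP90 stands at 1094 CPM in WT nuclei and 6495 CPM in WT cytoplasm. In the DNAJA and DNAJB panels all 3 K700E cytoplasm libraries lie below the 3 WT ones, and in the other classes they overlap. Of single genes 6.98% lay lower in this way, and no such share was computed for sums.

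HSP90AB1, the constitutive cytosolic HSP90, lies at chr6:44246166-44253888 (GRCh38). It read 360, 262 and 265 CPM in WT nuclei, 2599, 2759 and 2594 CPM in WT cytoplasm, 327, 206 and 272 CPM in K700E nuclei, and 2802, 3143 and 2628 CPM in K700E cytoplasm. All 6 cytoplasmic libraries stood far above all nuclear ones. The log2 fold change was 3.16 ± 0.23 (SE) with WT (adjusted p = 3.94e-08) and 3.41 ± 0.24 with K700E (adjusted p = 2.44e-08), the largest increase of any member with WT. HSP90AA1, the stress-inducible partner, read 1169, 409 and 818 CPM in WT nuclei and 4008, 4020 and 3506 CPM in WT cytoplasm. With K700E it read 1080, 936 and 585 CPM in nuclei and 2668, 3909 and 2707 CPM in cytoplasm. The fractions did not overlap, although nuclei were widely spread, and the log2 fold changes were 2.27 ± 0.33 and 1.84 ± 0.33. Per kilobase of exon, HSP90AB1 led in WT cytoplasm with 889 CPM per kb (871 to 926) before HSP90AA1 with 733 (668 to 766), and the ranges did not overlap. In WT nuclei the order was not resolved, at 87.8 to 121 for HSP90AB1 and 78 to 223 for HSP90AA1.

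HSPA8, the constitutive cytosolic HSP70, had the highest mean CPM of the HSP70s over all libraries, although in nuclei HSPA9 stood above it (means of 468 against 364 CPM with WT). Its level was 630, 144 and 317 CPM in WT nuclei, 1767, 1268 and 1190 CPM in WT cytoplasm, 494, 258 and 240.5 CPM in K700E nuclei, and 654, 1049 and 926 CPM in K700E cytoplasm. Fractions did not overlap with either construct, and K700E cytoplasm lay below WT cytoplasm in every library. The log2 fold change between fractions was 1.95 ± 0.41 with WT and 1.41 ± 0.41 with K700E. Its exchange factor HSPA4 was higher in the cytoplasm by 1.75 ± 0.22 and 1.56 ± 0.21, and the testis-enriched HSPA2, at 0.603 to 5.06 CPM, by 1.58 ± 0.46 and 2.11 ± 0.48. HSPA9, the mitochondrial HSP70, was higher too (0.78 ± 0.19 and 0.66 ± 0.19), as was HSPA13, a microsome-associated relative (1.13 ± 0.35 and 0.86 ± 0.35). The HSP110 members HSPA4L (0.78 ± 0.24) and HSPH1 (0.85 ± 0.33) passed with WT alone, and the call of HSPH1 ended without WT nucleus 2, WT cytoplasm 1 or WT cytoplasm 2 (K700E estimates 0.40 and 0.47).

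HSPA12A, a distant HSP70 relative, was the one HSP70 member lower in the cytoplasm. It read 133, 145 and 242 CPM in WT nuclei and 52.4, 57.6 and 64.0 CPM in WT cytoplasm. With K700E it read 146, 125 and 225 CPM in nuclei and 49.1, 75.6 and 61.5 CPM in cytoplasm. Again the fractions did not overlap, and the log2 fold change was -1.58 ± 0.27 with WT and -1.41 ± 0.27 with K700E.

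HSPD1, the mitochondrial HSP60, shares a promoter region on chromosome 2 with its partner HSPE1, which runs in the opposite direction. The pair lies 51.5 kb from SF3B1, the gene carried by the plasmid. HSPD1 read 860, 390 and 672 CPM in WT nuclei, 2058, 2084 and 2002 CPM in WT cytoplasm, 717, 611 and 527 CPM in K700E nuclei, and 1822, 2157 and 1814 CPM in K700E cytoplasm. Cytoplasm exceeded every nuclear library, by 1.68 ± 0.25 with WT and 1.64 ± 0.25 with K700E (log2). HSPE1 was higher by 1.16 ± 0.30 and 0.88 ± 0.30, and its K700E call ended without K700E nucleus 3 or K700E cytoplasm 2. Exons of the pair overlap by 281 bases on opposite strands, and whether the counting used strand is not given in the sources used here.

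DNAJA1, a general J-protein partner of HSPA8 at chr9:33025211-33039907, had the largest difference of the DNAJA class. The libraries read 128, 61.2 and 76.3 CPM in WT nuclei, 525, 405 and 393 CPM in WT cytoplasm, 96.6, 69.9 and 56.2 CPM in K700E nuclei, and 210, 293 and 274 CPM in K700E cytoplasm. Cytoplasm lay above nucleus throughout, and the 3 K700E cytoplasmic values lay below the 3 WT ones. Log2 fold changes between fractions were 2.32 ± 0.29 with WT (adjusted p = 3.67e-06) and 1.80 ± 0.28 with K700E (adjusted p = 4e-05). Its close relative DNAJA2 was higher by 1.79 ± 0.21 and 1.58 ± 0.21. DNAJA4 went the other way with WT, from 7.19, 4.11 and 5.45 CPM in nuclei to 3.11, 2.07 and 1.5 CPM in cytoplasm (-1.33 ± 0.48). With K700E its 3.9, 2.15 and 5.13 CPM in nuclei overlapped the 1.20, 3.78 and 2.84 CPM in cytoplasm (-0.51 ± 0.48, not called). The WT call of DNAJA4 ended without WT nucleus 1, WT cytoplasm 2 or WT cytoplasm 3.

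In the DNAJB class, 4 of 10 tested members were higher and 3 lower with WT, and 5 and 4 with K700E, beside 35.4% and 29.5% of protein-coding genes with WT and 36.5% and 27.4% with K700E. DNAJB1, the main heat-inducible J-protein, read 39.0, 51.4 and 29.6 CPM in WT nuclei and 185, 140 and 170 CPM in WT cytoplasm (2.04 ± 0.27). With K700E it read 29.7, 48.4 and 24.7 CPM in nuclei and 87.4, 97.1 and 116 CPM in cytoplasm (1.55 ± 0.27). Fractions did not overlap, and K700E cytoplasm lay below WT cytoplasm. DNAJB5 was rare but strongly cytoplasmic, with 4.84, 6.04 and 3.45 CPM in WT nuclei, 20.9, 18.6 and 19.2 CPM in WT cytoplasm, 3.51, 5.00 and 1.91 CPM in K700E nuclei, and 21.0, 17.1 and 19 CPM in K700E cytoplasm (2.03 ± 0.33 and 2.45 ± 0.33). DNAJB6, which suppresses aggregation, had the highest mean CPM of the class over all libraries, although in nuclei DNAJB14 had the higher mean (124 against 117 CPM with WT). It read 132, 99.6 and 118 CPM in WT nuclei, 268, 261 and 276 CPM in WT cytoplasm, 122, 141 and 97.6 CPM in K700E nuclei, and 218, 233 and 233 CPM in K700E cytoplasm. It was higher by 1.20 ± 0.20 and 0.92 ± 0.20, again without overlap. DNAJB12, an ER membrane J-protein facing the cytosol, was higher by 1.02 ± 0.28 and 1.34 ± 0.28, whereas its paralogue DNAJB14 was lower (-0.78 ± 0.27 and -0.77 ± 0.27). DNAJB4, a cytosolic relative of DNAJB1, was lower too (-0.82 ± 0.25 and -1.29 ± 0.25), and the sperm protein DNAJB13, at 0 to 2.36 CPM, by -3.23 ± 0.91 and -2.06 ± 0.86. DNAJB2, a J-protein with ubiquitin-interacting motifs, passed with K700E alone (0.73 ± 0.27), a call that ended without K700E nucleus 2, nucleus 3 or cytoplasm 3. The WT calls of DNAJB4 (without WT nucleus 3) and DNAJB14 (without WT nucleus 1, WT cytoplasm 1 or WT cytoplasm 3), and the K700E calls of DNAJB13 and DNAJB14, did not hold with single libraries left out.

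In the DNAJC class, J-proteins with little in common beyond the J-domain, 9 of 25 tested members were higher and 7 lower with WT, and 10 and 7 with K700E, where 35.4% and 29.5% of protein-coding genes were higher and lower with WT and 36.5% and 27.4% with K700E. DNAJC8, a spliceosome-associated protein, had the highest mean CPM of the class over all libraries, although in WT nuclei members such as DNAJC2 stood above it (means of 267 against 86.1 CPM). It read 141, 51.8 and 65.3 CPM in WT nuclei, 447, 444 and 374 CPM in WT cytoplasm, 108, 76.4 and 66.1 CPM in K700E nuclei, and 390, 404 and 322 CPM in K700E cytoplasm. Every cytoplasmic library exceeded every nuclear one (2.29 ± 0.32 and 2.16 ± 0.31). DNAJC14, an ER membrane protein, had the largest increase of the class. It read 6.33, 4.64 and 3.81 CPM in WT nuclei, 31.3, 23.9 and 36.7 CPM in WT cytoplasm, 3.67, 2.84 and 5.31 CPM in K700E nuclei, and 14.6, 21.5 and 28.8 CPM in K700E cytoplasm. The fractions lay apart and the fold changes were 2.63 ± 0.33 and 2.46 ± 0.33. Exons of ORMDL2 and TMEM198B on the opposite strand cover 21.9% and 12.9% of its exon length. Those of a protein-coding gene without a symbol, on the same strand, cover 23.2%. Counts of DNAJC14 may include reads of these genes. DNAJC12, a co-chaperone of aromatic amino acid hydroxylases, was higher by 1.66 ± 0.31 and 1.61 ± 0.30, and DNAJC19, a part of the mitochondrial import motor, by 1.15 ± 0.24 and 0.89 ± 0.24. DNAJC30 passed with K700E alone (1.23 ± 0.36) and not without K700E cytoplasm 3.

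At the other end of the class, DNAJC25, a transmembrane J-protein, read 99.2, 95.4 and 126 CPM in WT nuclei and 33.6, 42.2 and 33 CPM in WT cytoplasm (-1.56 ± 0.23). With K700E it read 103, 150 and 93.3 CPM in nuclei and 37.3, 37.4 and 30.2 CPM in cytoplasm (-1.72 ± 0.23). The fractions did not overlap, and the nuclear values were close to each other with WT. DNAJC27, which joins a J-domain to a small GTPase domain, read 55.5, 27.8 and 35.0 CPM in WT nuclei, 16.8, 17.0 and 16.2 CPM in WT cytoplasm, 58.1, 66.7 and 41.3 CPM in K700E nuclei, and 25, 23.3 and 16.8 CPM in K700E cytoplasm. It too was lower without overlap (-1.24 ± 0.28 and -1.35 ± 0.27). DNAJC15, a mitochondrial relative of DNAJC19, read 4.61, 7.52 and 3.99 CPM in WT nuclei, 1.06, 0.828 and 0.391 CPM in WT cytoplasm, 4.38, 8.01 and 3.74 CPM in K700E nuclei, and 1.45, 0.463 and 0.639 CPM in K700E cytoplasm (-2.83 ± 0.54 and -2.66 ± 0.54). So the import-motor pair went in opposite directions, with DNAJC19 higher and DNAJC15 lower in the cytoplasm. DNAJC5G, a testis relative of DNAJC5, had 0.781, 5.69 and 2.27 CPM in WT nuclei, 0, 0.166 and 0.196 CPM in WT cytoplasm, 1.27, 3.88 and 4.44 CPM in K700E nuclei, and 0.0854, 0.0772 and 0.568 CPM in K700E cytoplasm. It was listed near 0 in the cytoplasm, and the fitted changes of -4.41 ± 0.97 and -3.61 ± 0.89 depend on few counts.

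Sorted by where the protein works, 7 of 12 cytosolic J-proteins were higher in the cytoplasm and 3 lower with WT, and 8 and 2 with K700E. Of the J-proteins of the endoplasmic reticulum (ER), 1 of 9 tested was higher and 3 lower with WT, and 2 and 4 with K700E. Of protein-coding genes 35.4% were higher and 29.5% lower with WT, and 36.5% and 27.4% with K700E. The median with WT was 1.08 for the cytosolic list, -0.11 for the ER list and 0.13 for protein-coding genes. DNAJC14, an ER membrane protein, was on none of these lists. It was higher by 2.63 ± 0.33 and 2.46 ± 0.33, so the ER counts and median leave out a strongly cytoplasmic member. Within the ER list, DNAJC10, a disulfide reductase, was lower (-0.87 ± 0.22 and -1.02 ± 0.22), and DNAJB11, a cofactor of the ER HSP70, passed with K700E alone (-0.68 ± 0.28), a call that ended without most single libraries. DNAJC1, a ribosome-associated ER protein, was higher with K700E alone (0.89 ± 0.31), a call that ended without K700E nucleus 1, nucleus 3 or cytoplasm 1. The lists overlap with the DNAJA, DNAJB and DNAJC classes and their difference was not tested.

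Of the 5 J-proteins linked to the nucleus, splicing or the ribosome, DNAJC8, DNAJC9 and DNAJC21 were higher in the cytoplasm and DNAJC2 lower with WT. DNAJC9, a histone chaperone, was higher by 1.01 ± 0.30, a call that ended without WT cytoplasm 3, and exons of FAM149B1 cover 24% of its exon length on the other strand. DNAJC21, a ribosome assembly factor, was higher by 0.82 ± 0.24 with WT and 0.70 ± 0.24 with K700E. DNAJC2, which with HSPA14 forms the ribosome-associated complex, was lower (-0.93 ± 0.25 and -0.77 ± 0.25). Among the vesicle proteins, DNAJC5, the cysteine string protein (0.77 ± 0.26 and 0.94 ± 0.26), and DNAJC6, the clathrin-uncoating auxilin (0.88 ± 0.24 and 0.70 ± 0.24), were higher, while the endosomal DNAJC13 was lower (-0.58 ± 0.24 and -0.84 ± 0.24). The WT call of DNAJC5 ended without WT cytoplasm 3 and that of DNAJC13 when almost any single library was left out. With K700E, the call of DNAJC2 ended without K700E nucleus 1 or cytoplasm 3, that of DNAJC6 without K700E nucleus 3 or cytoplasm 2, and those of DNAJC21 and HSPA13 without K700E nucleus 3, cytoplasm 1 or cytoplasm 2. DNAJC7, a co-chaperone bridging HSP70 and HSP90, was higher by 0.96 ± 0.18 and 0.94 ± 0.18.

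HSPB1, the small heat shock protein HSP27, was the one abundant member of its class and had the largest increase with K700E. It read 6.33, 16.7 and 5.35 CPM in WT nuclei, 57.8, 62.5 and 61.5 CPM in WT cytoplasm, 3.9, 6.46 and 5.22 CPM in K700E nuclei, and 58.4, 61.5 and 86.1 CPM in K700E cytoplasm. WT nucleus 2 was far above the other nuclei, yet all cytoplasmic libraries stood higher, and the fold changes were 2.68 ± 0.36 and 3.72 ± 0.38. HSPB8, which works with BAG3 in selective autophagy, passed with WT alone (1.69 ± 0.67) at 0.174 to 4.35 CPM, and lost that call without WT nucleus 3, WT cytoplasm 1 or WT cytoplasm 3. HSPB3, a muscle protein, had 9, 22 and 17 counts in WT nuclei and 0, 1 and 0 in WT cytoplasm. That is 48 counts against 1, a nucleus-to-cytoplasm ratio of 52.7 after scaling with an exact 95% interval from 9.01 to 2120, which covers counting error only. With K700E it had 10, 7 and 11 counts in nuclei and 0, 0 and 5 in cytoplasm. The fitted change with K700E was -2.56 ± 1.00, a call that ended without any one of 6 libraries, K700E cytoplasm 1 and 2 among them.

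**Figure D3:**
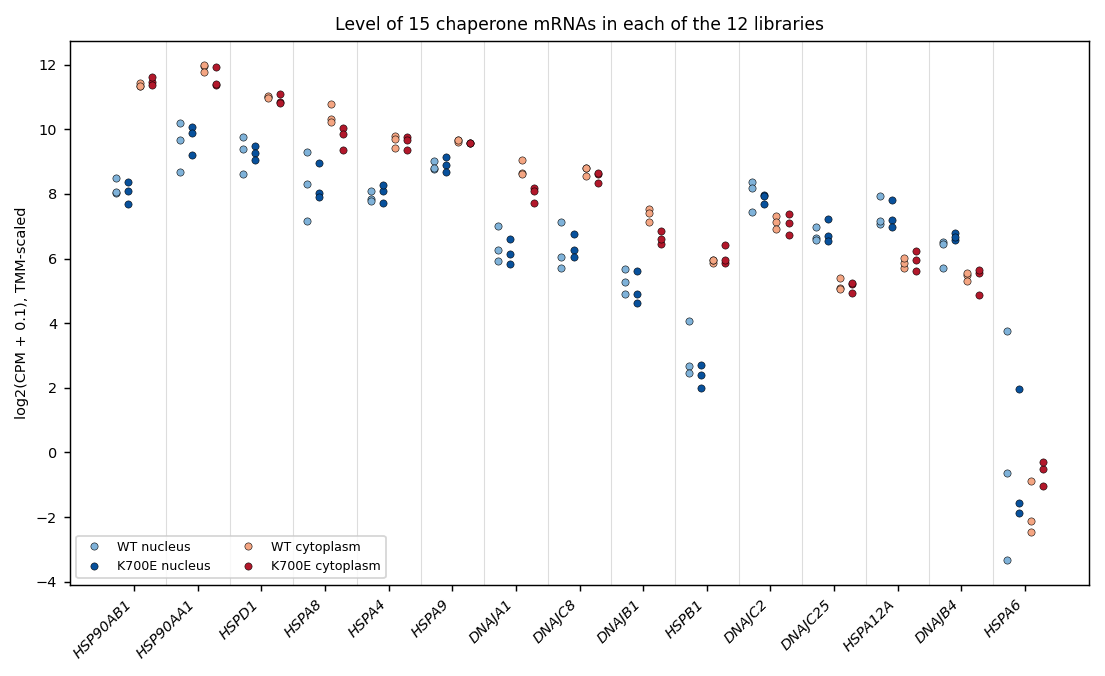
Level of 15 chaperones as log2(CPM + 0.1) in each of the 12 libraries, coloured by group. The genes from HSP90AB1 to HSPB1 lie higher in the cytoplasm, DNAJC2, DNAJC25, HSPA12A and DNAJB4 lie lower, and HSPA6 stands out in the second nuclear library of each construct at 13.6 and 3.79 CPM.

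The tested members listed as stress-inducible HSF1 targets were all on the cytoplasmic side with WT. The list also holds HSPA8 and HSP90AB1, described above as constitutive, so its counts and sums do not measure stress induction alone. Of 14 on that list, 10 were tested, and 10 of 10 were higher with WT (median 2) and 8 of 10 with K700E (median 1.60), with HSPA4L and HSPH1 not called. Of protein-coding genes 35.4% were higher with WT and 36.5% with K700E. The WT calls of HSPA4L and HSPH1 and the K700E call of HSPE1 ended with library size alone and with upper quartile factors. The sum over the list was 2576 ± 1031 CPM in WT nuclei, 11227 ± 712 CPM in WT cytoplasm, 2559 ± 594 CPM in K700E nuclei and 9692 ± 1401 CPM in K700E cytoplasm (SD, n = 3). HSP90AA1, HSP90AB1, HSPA8 and HSPD1, whose elements are printed above, are 4 of the 10. In WT cytoplasm these 4 genes made up 62.4% of all chaperone CPM.

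The 4 untested members of that list were HSPA6 and the chromosome 6 genes HSPA1A, HSPA1B and HSPA1L. HSPA1A and HSPA1B, near-identical copies that encode the main inducible HSP70, had 2 and 4 counts over all 12 libraries, and HSPA1L had 0. Those of HSPA1A fell 1 each in WT nucleus 2 and 3, and those of HSPA1B 1 each in WT nucleus 3, WT cytoplasm 2 and 3 and K700E cytoplasm 2. They lie in the MHC region of chromosome 6, where 134 of 180 protein-coding genes (74.4%) had fewer than 24 counts in all, against 24.5% of all protein-coding genes. TUBB and DDX39B, genes that most cells use, had 41 and 97 counts there. DNAJA3, a mitochondrial J-protein with 13 counts, sits in a similar run on chromosome 16, where 8 of 9 protein-coding genes had fewer than 24 counts. HSPA1A, HSPA1B, HSPA1L and DNAJA3 are therefore only listed at or near 0, and what set these values was not tested.

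HSPA6, an HSP70 that cells make under strong stress, was detected mainly in 2 libraries. It had 155 counts in WT nucleus 2 and 44 in K700E nucleus 2 (13.6 and 3.79 CPM), against 0 to 10 counts in each of the other 10 libraries. Its near-copy HSPA7 had 13 counts in all. Of the rest that were not tested, DNAJB8 and HSPB2 had 0 counts, as HSPA1L did, which allows up to 0.0198 CPM over the summed 151441327 counts. DNAJB7 had 49 counts and DNAJC18 had 40. DNAJC5B, DNAJC28, HSPB6, HSPB7 and DNAJC25-GNG10 had 1 to 17.

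Co-chaperones and stress factors outside the set were also more often higher in the cytoplasm than lower. Of 49 listed genes 46 were tested, and 30 were higher in the cytoplasm and 4 lower with WT (median 1.23), and 31 and 4 with K700E (median 1.46). Of protein-coding genes 35.4% were higher and 29.5% lower with WT, and 36.5% and 27.4% with K700E. The largest increases with WT were HSBP1, an inhibitor of HSF1 (3.33 ± 0.34), GRPEL1, the exchange factor of mitochondrial HSP70 (2.82 ± 0.22), and HSPBP1, an HSP70 exchange factor (2.64 ± 0.37). With K700E the same genes were higher by 3.06 ± 0.33, 2.63 ± 0.22 and 3.06 ± 0.38. Among those lower with WT were CRYAB, a small heat shock protein (-2.84 ± 0.84), and GAK, an auxilin relative (-1.03 ± 0.31). CRYAB was rare, with means of 1.11 CPM in WT nuclei and 0.136 CPM in WT cytoplasm. With K700E neither CRYAB (-1.63 ± 0.75) nor GAK (-0.51 ± 0.31) was called. HSP90B1, at means of 707 CPM in WT nuclei and 356 CPM in WT cytoplasm, was lower with both constructs (-0.99 ± 0.29 and -1.23 ± 0.29).

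The fraction difference was set beside simple gene features. Across the 56 genes its Spearman correlation with WT was 0.08 with GC content, -0.15 with exon length, -0.16 with gene span and 0.02 with the number of exons in the longest transcript. The same over 13895 protein-coding genes was -0.09, -0.205, -0.11 and -0.28. Genes share libraries and are not independent, so these are descriptions. By level, after the leading pair, HSPD1 (482 CPM per kb, 472 to 491) and HSPA8 (290, 245 to 364) followed in WT cytoplasm without overlap. DNAJA1 (161, 144 to 192), HSPA4 (156, 133 to 172) and DNAJC8 (146, 129 to 155) came next and could not be ordered, their ranges overlapping.

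No chaperone passed the test between K700E and WT in either fraction. In the nucleus 0 of 56 members were called, where 0% of all genes were (edgeR, smallest adjusted p 0.222 over all genes and 0.659 over members). Unadjusted p was under 0.05 for 3 members, against 6.81% of all genes. DESeq2's Wald test called 0 members as well and 1 gene in all. In the cytoplasm 0 members were called, where 0.0049% of all genes, 1 gene, was. Unadjusted p was under 0.05 for 3 members there, against 4.56% of all genes. DESeq2 called 0 members there, and of all genes 11 higher and 2 lower. The 95% intervals, which are not adjusted for the number of genes, had a median half-width of 0.58 (log2) in both fractions. A call after adjustment needed a larger change than that for a typical member. DNAJA1, at -0.77 in the cytoplasm, was not called.

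In the cytoplasm, the smallest p-values belonged to DNAJA1 and DNAJB1, J-proteins of the HSF1 list, and to DNAJC11. DNAJA1 was estimated at -0.77 ± 0.27 (edgeR, unadjusted p = 0.012, adjusted p = 1), with all 3 K700E libraries below WT as given above. DNAJB1 stood at -0.72 ± 0.26 (unadjusted p = 0.014), also in 3 of 3 libraries. HSPA8 was at -0.68 ± 0.40 with the same separation. Leaving out single libraries kept the direction of these 3, with estimates from -0.87 to -0.49. DNAJC11, a protein of the mitochondrial inner membrane organising complex, read 111, 95.2 and 98.6 CPM in WT cytoplasm and 42.2, 70.9 and 84.3 CPM in K700E cytoplasm (-0.63 ± 0.29), and in nuclei 94.3, 87.4 and 107 CPM against 79.0, 43.2 and 99.7 CPM. Exons of THAP3 on the other strand cover 27.9% of its exon length.

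Over the stress-inducible list, 8 of 10 tested members were estimated lower in K700E cytoplasm, with a median of -0.34, against 0 for all genes and -0.06 for all 56 members. Estimates below 0 were also found for 34 of the 56 members and 9713 of 20394 genes. In 3 of the 10 of the list the groups did not overlap, where 6.98% of all genes lay lower without overlap. The 2 members of the list above 0 were HSPB1 (0.18 ± 0.33) and HSP90AB1 (0.11 ± 0.21). The others ran from HSPA4L (-0.09 ± 0.24) and HSPD1 (-0.08 ± 0.25) through HSP90AA1 (-0.31 ± 0.32), HSPH1 (-0.37 ± 0.33) and HSPE1 (-0.43 ± 0.30) to DNAJA1. The signs of HSPA4L and HSPB1 turned when K700E cytoplasm 3 was left out. Over all 56 members, 7 lay lower without overlap (DNAJA1, DNAJB1, DNAJB6, DNAJC11, DNAJC19, HSPA8, HSPA9) and 1 higher (DNAJC16), where 6.6% of all genes lay higher without overlap. SF3B1 itself read 6900 to 8539 CPM in K700E cytoplasm and 8186 to 10050 CPM in WT cytoplasm, and its part in these values was not tested.

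**Figure D4:**
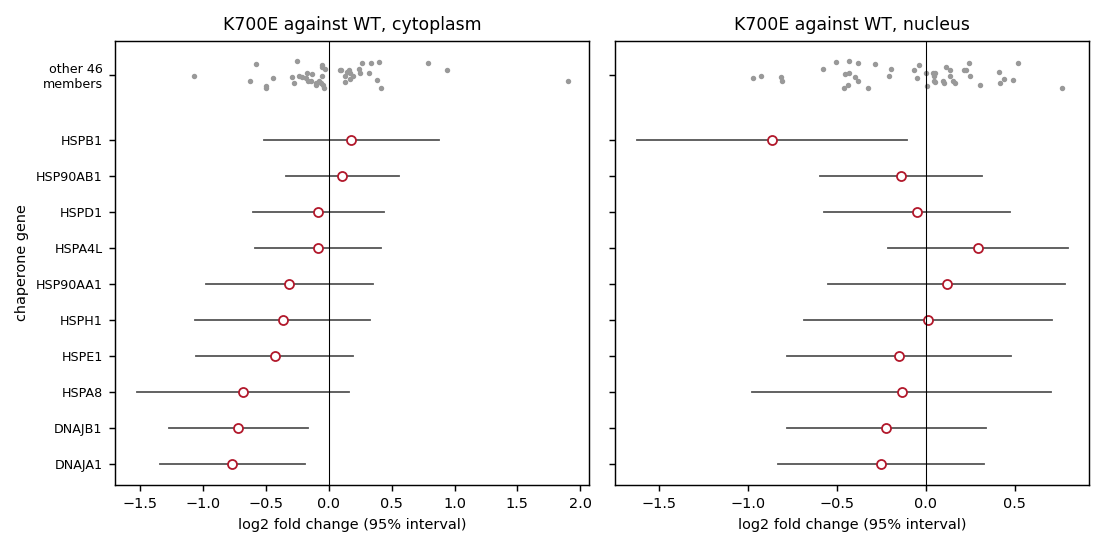
Log2 fold change of K700E against WT with 95% intervals for the 10 tested members of the stress-inducible list, in cytoplasm and nucleus, with the other 46 members as grey points. In the cytoplasm 8 of the 10 lie below 0 down to -0.77 for DNAJA1, and in the nucleus 7 of the 10. No symbol is filled because no member passed the test.

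In the nucleus, the lowest p-values belonged to DNAJC30, HSPB1 and DNAJC6. DNAJC30, a mitochondrial J-protein involved in complex I repair, read 6.56, 7.70 and 8.89 CPM in WT nuclei and 4.30, 3.45 and 4 CPM in K700E nuclei, without overlap (-0.97 ± 0.36). In cytoplasm it read 10.9, 10.0 and 16.5 CPM against 6.06, 6.80 and 14.6 CPM, which overlapped. DNAJC6 read 33.4, 21.9 and 31.1 CPM in WT nuclei and 39.4, 49.8 and 34.5 CPM in K700E nuclei (0.52 ± 0.24), and 51.2, 62.0 and 46.1 CPM against 64.9, 82.7 and 53.4 CPM in cytoplasm. HSPB1 was at -0.86 ± 0.36 with overlapping groups, and without WT nucleus 2 its estimate was -0.17. DNAJA1 (-0.25 ± 0.27) and DNAJB1 (-0.22 ± 0.26) crossed 0 when WT nucleus 1 and WT nucleus 2, respectively, were left out. Of the stress-inducible list, 7 of 10 were below 0 in nuclei (median -0.14), beside 28 of 56 members and 11046 of 20394 genes. Of all 56 members, 2 lay higher without overlap (DNAJB4 and DNAJC6, against 3.91% of all genes) and 2 lower (DNAJC5 and DNAJC30, against 4.87%).

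Nuclear differences between the constructs ran with base composition. Across the 56 members the log2 fold change of K700E against WT was lower at higher transcript GC content (Spearman -0.75), and likewise over 13895 protein-coding genes (-0.70). In the cytoplasm the values were -0.19 and -0.08. HSPB1, with 64.3% GC, and DNAJC30 lay at the low end, and DNAJB4, with the lowest GC content (33.1%), lay above 0. With the 3 GC-rich libraries left out, DNAJC30 was at -0.98, DNAJC6 at 0.36 and HSPB1 at -0.17. These correlations are descriptions over genes that share 12 libraries.

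**Figure D5:**
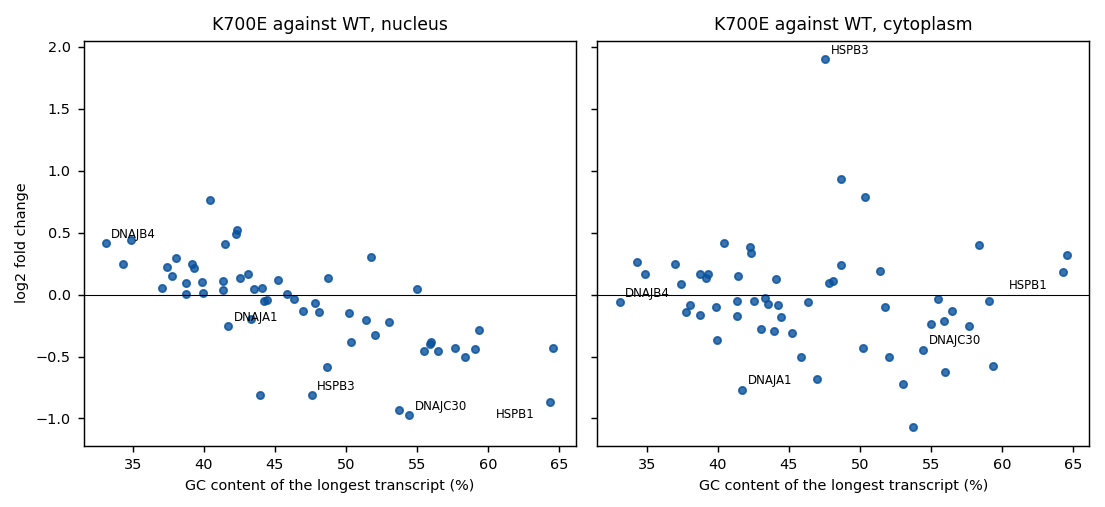
Log2 fold change of K700E against WT for the 56 tested chaperones against the GC content of their longest transcript, in nucleus and cytoplasm. The nuclear values slope down with a Spearman correlation of -0.75, and the cytoplasmic ones show -0.19.

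The cytoplasm-to-nucleus ratio of the chaperones gave no call between constructs. The interaction test called 0 of 56 members, where 0% of all genes were (edgeR, smallest adjusted p 0.98 over members and 0.771 over all genes). DESeq2 called 0 members, and of all genes 2 higher and 1 lower. Unadjusted p was under 0.05 for 1 member, HSPB1, against 3.3% of all genes. Its ratio was higher with K700E by 1.04 ± 0.49 (adjusted p = 0.98), and by 0.18 without the 3 GC-rich libraries. DNAJC4, a membrane J-protein, followed at 0.90 ± 0.50. It read 12.3, 25.4 and 14.7 CPM in WT nuclei, 9.05, 8.53 and 17.3 CPM in WT cytoplasm, 13.9, 11.5 and 11.5 CPM in K700E nuclei, and 15, 9.88 and 21.2 CPM in K700E cytoplasm, with all groups overlapping. HSPB3, at 2.71 ± 1.67, rests on the few counts given above, and its sign turned without K700E cytoplasm 3. DNAJA1 and DNAJB1 were at -0.51 ± 0.39 and -0.50 ± 0.37. Over all members the estimates ran from -0.55 (HSPA8) to 2.71 with a median of -0.13, against 0.05 over all genes. The intervals, again not adjusted for the number of genes, had a median half-width of 0.82. A call after adjustment needed a larger change of the ratio than that for a typical member.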

How the data were processed

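The deposited files hold raw counts per gene, 1 file for each of 12 libraries, made by the authors with HISAT2 and DESeq named without versions, per the submitters' processing notes. Per the labels' protocols, 1 µg of Trizol-extracted RNA per library went into a NEBNext Ultra kit. The counting program, strand setting, genome build and annotation are not stated in the labels or headers (not given in the sources used here).

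IDs were matched without version to GENCODE 29 (GRCh38) for type, position, merged exon length and GC content of the longest transcript (58396 IDs, 99.73% of counts). Tests used edgeR 4.0.16 in R 4.3.3: quasi-likelihood F tests on all 12 libraries with 1 term per group, TMM, filterByExpr (minimum count 10, total 15), Benjamini-Hochberg over 20394 genes, called under 0.05. SE is the absolute log2 fold change over the square root of F. The common biological coefficient of variation was 0.306. Class sums are plain means and SDs. Reads carry no molecular identifiers in these tables, so counting intervals and the floor of 3 counts cover counting error only. Scripts were tested on simulated data. No replicate files were identical.

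The members and lists were chosen with earlier results of these data known. Per-library values are given for the highest member of each class, the 5 called members with the largest change each way between fractions at a mean of 1 CPM or more, the 3 smallest p-values in each other comparison, HSP90AB1, DNAJA1, HSPA1A and HSPA1B; for co-chaperones the 3 largest called changes each way. One of these is not reported here. HSPA6 and, among co-chaperones, HSP90B1 were added after their values were seen. Lists: 7 classes, J-proteins by site, stress-inducible HSF1 targets, co-chaperones. Alternatives covered scaling, filters, tools, libraries and the replicate block.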

Additional observations from a re-analysis of the deposited data

How the results depend on the processing

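With library size alone, 17 members were higher in the cytoplasm with WT and 17 with K700E, where 3789 and 4225 of 20394 genes were. Leaving out single libraries gave 8 to 13 lower members with K700E, 8 of them without K700E nucleus 1, and 26 of 41 WT calls and 25 of 40 K700E calls held under every alternative.

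Signs turned as follows (log2). Between fractions with WT, DNAJB2 came to -0.17 with library size alone and -0.033 with upper quartile factors, DNAJC1 to -0.034 with library size alone, and DNAJB11 ranged from -0.55 to 0.060 with single libraries left out. For K700E against WT in the nucleus DNAJA1 ranged from -0.49 to 0.12 and DNAJB1 from -0.55 to 0.0011, and DNAJB1 was 0.0011 without the 3 GC-rich libraries. In the cytoplasm HSPA4L ranged from -0.23 to 0.078 (0.041 without the GC-rich libraries) and HSPB1 from -0.018 to 0.28. The HSPB3 ratio ranged from -1.04 to 4.55, and was -1.87 without the GC-rich libraries. The cause was not tested, and leaving out the GC-rich libraries was chosen after seeing the data.

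Class sums moved by more than 1 SD as follows (CPM). With library size alone, WT and K700E cytoplasm were at 585 and 419.7 for DNAJA, 606 and 538 for DNAJB, 1623 and 1587 for DNAJC, 3279 and 2772 for HSP70 and HSP110, and 1791 and 1719 for HSPD1 and HSPE1. HSP90 was at 5461 and small HSP at 54.1 in WT cytoplasm, DNAJC at 1872 and 1846 in WT and K700E nuclei, and small HSP at 8.44 in K700E nuclei. The DNAJC means were thus higher in nuclei than in cytoplasm with both constructs. With upper quartile factors, WT and K700E cytoplasm were at 629 and 552 for DNAJB, 1687 and 1631 for DNAJC, and 1862 and 1764 for HSPD1 and HSPE1. HSP90 was at 5679 and small HSP at 56.2 in WT cytoplasm, DNAJA at 430.3 and HSP70 and HSP110 at 2846 in K700E cytoplasm, and DNAJC at 1839 and small HSP at 8.44 in K700E nuclei. The K700E mean of DNAJC was again higher in nuclei than in cytoplasm. DESeq2 size factors put DNAJB at 597 in K700E cytoplasm. With single libraries left out, WT cytoplasm ranged from 719.9 to 754 for DNAJB, 1939 to 2010.3 for DNAJC, 65.2 to 66.5 for small HSP and 2150.2 to 2203 for HSPD1 and HSPE1, and K700E cytoplasm from 631 to 642 for DNAJB and 1839 to 1951 for DNAJC.

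The replicate numbers were not taken as pairs: deviations of same-numbered libraries correlated at -0.494 to 0.607, with 9 of 18 pairs over 0.1, and a library was closest to its own number in 12 of 36 checks. With the replicate block 30 members were higher and 12 lower with WT, and 28 and 12 with K700E. Of 20394 genes, 5521 were then higher and 8084 lower with WT, and 5725 and 7696 with K700E. Low counts limit HSPB3, DNAJC5G and DNAJB13.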

Other observations

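Members of the stress-inducible list went different ways in WT nucleus 2, one of the 3 GC-rich libraries. DNAJB1, like HSPA6, was highest in the second nuclear library of its construct, at 51.4 CPM in WT nucleus 2 and 48.4 CPM in K700E nucleus 2, against 24.7 to 39 CPM in the other nuclei. HSPB1 was highest in the same libraries, at 16.7 and 6.46 CPM. HSPA8 (144 CPM), HSP90AA1 (409), HSP90AB1 (262), HSPD1 (390), HSPH1 (86.3), DNAJA1 (61.2) and HSPA4L (103) were instead lowest of the 3 WT nuclei in WT nucleus 2. The sum over the stress-inducible list was lowest there too, at 1574 CPM against 3633 and 2523 CPM in WT nucleus 1 and 3.

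The gene symbols of the chaperone families also name 53 rows that are not protein-coding, 15 of them at 0 in every library. HSP90AB3P, a pseudogene of HSP90AB1, was higher in the cytoplasm by 3.17 ± 0.43 with WT (log2), and HSP90AA2P, a pseudogene of HSP90AA1, by 2.46 ± 0.43. Both values lie near those of the parent genes, and how reads were split between copies is not given in the sources used here. Other tested pseudogenes went either way. DNAJB6P1, DNAJC8P1 and DNAJC8P2 were higher with WT (2.10 ± 0.45, 2.89 ± 0.68 and 2.08 ± 0.49), like their parents. HSP90AB4P had 89 counts in WT nuclei and 0 in WT cytoplasm, and DNAJC8P4 had 173 and 0, whereas HSP90AB1 and DNAJC8 were higher in the cytoplasm. DNAJC19P5 was not called (-1.15 ± 0.71). DNAJC3-DT, a divergent transcript next to DNAJC3, was lower (-1.21 ± 0.32).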
